A study of Mus musculus with 2 samples.

Results

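Chemokines are small secreted proteins that guide leukocytes along concentration gradients, and 10 of them that stromal cells are known to make were followed here in fibroblasts of the mouse mammary gland. The 10 genes, *Ccl2*, *Ccl7*, *Ccl11*, *Cxcl1*, *Cxcl2*, *Cxcl9*, *Cxcl10*, *Cxcl12*, *Cxcl13* and *Cxcl14*, were taken by symbol from a list of 33696 genes that was identical in both libraries. Droplet-based single-cell RNA sequencing (scRNA-seq) had been carried out on stroma of female wild-type C57BL/6 mice at puberty (4 weeks of age) and of adult virgin females (9 weeks). Cells had been sorted as negative for CD24 and for lineage markers of leukocytes, endothelium and red blood cells, and the labels give 2 females per condition. Each stage was represented by 1 library, so a difference between stages is a difference between 2 libraries, and it could not be set against a spread between animals. Both libraries carry the number 2 in their labels, and other stages and libraries were not analysed here.

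Fibroblasts make chemokines in a pair of broad ways. Inflammatory chemokines such as *Ccl2*, *Ccl7*, *Cxcl1* and *Cxcl2* are induced within hours by NF-kB signalling, and *Cxcl9* and *Cxcl10* by interferons, whereas *Cxcl12*, *Cxcl13* and *Cxcl14* are classed as homeostatic, being made by resting stroma to place leukocytes and progenitor cells. *Ccl11*, or eotaxin, attracts eosinophils, which together with macrophages are known to assist the outgrowth of mammary ducts at puberty.

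The genes lie in a few clusters of the mouse genome. In the RefSeq annotation of GRCm38.p6, the build family (mm10) named in the submitters' processing notes, *Ccl2* (chr11:82035577-82037452), *Ccl7* (chr11:82045712-82047525) and *Ccl11* (chr11:82057832-82062955) are neighbours. *Cxcl1* (chr5:90891245-90893121) and *Cxcl2* (chr5:90903899-90905938) are adjacent, and *Cxcl9* (chr5:92321331-92328079) and *Cxcl10* (chr5:92346638-92348889) form a second pair on the same chromosome, which also carries *Cxcl13* (chr5:95956939-95961068). *Cxcl12* is on chromosome 6 (chr6:117168535-117181368) and *Cxcl14* on chromosome 13 (chr13:56288643-56296811). RefSeq promoter windows were matched for 7 of the 10 genes, the exceptions being *Ccl2*, *Ccl7* and *Ccl11*.

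The 250 bases before the annotated start are shown for 5 genes, because these differ in the signals said to induce them and in the stage at which their levels were higher. Each is written 5′ to 3′ on the gene's own strand, *Cxcl1* from chr5:90890995-90891244 (plus strand), *Cxcl2* from chr5:90903649-90903898 (plus), *Cxcl10* from chr5:92348890-92349139 (minus), *Cxcl9* from chr5:92328080-92328329 (minus) and *Cxcl14* from chr13:56296552-56296801 (minus). The *Cxcl14* window lies wholly inside the gene span given above, so the start that it precedes is an inner one. The other windows shown lie outside the spans of their genes. Capitals mark matches, on either strand, to the kB consensus of NF-kB, to GAAA followed after any 2 bases by GAAA (the core of the interferon-stimulated element), to TTCNNNGAA (the STAT element), to TGANTCA (the AP-1 element) or to TATAAA.
Cxcl1: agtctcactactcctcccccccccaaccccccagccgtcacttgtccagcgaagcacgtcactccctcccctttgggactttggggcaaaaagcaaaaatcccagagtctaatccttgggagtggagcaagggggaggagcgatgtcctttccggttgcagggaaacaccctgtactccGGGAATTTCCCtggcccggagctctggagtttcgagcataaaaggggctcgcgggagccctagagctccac
Cxcl2: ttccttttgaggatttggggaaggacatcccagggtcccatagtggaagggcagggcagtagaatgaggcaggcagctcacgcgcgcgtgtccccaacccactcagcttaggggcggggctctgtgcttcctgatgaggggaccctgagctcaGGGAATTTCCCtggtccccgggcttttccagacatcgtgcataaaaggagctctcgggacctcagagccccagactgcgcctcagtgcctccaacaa
Cxcl10: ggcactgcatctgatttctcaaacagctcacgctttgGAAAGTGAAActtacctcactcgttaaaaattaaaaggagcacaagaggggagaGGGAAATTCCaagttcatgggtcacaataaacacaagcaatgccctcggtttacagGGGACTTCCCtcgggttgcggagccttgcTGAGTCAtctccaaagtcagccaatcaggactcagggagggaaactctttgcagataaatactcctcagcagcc
Cxcl9: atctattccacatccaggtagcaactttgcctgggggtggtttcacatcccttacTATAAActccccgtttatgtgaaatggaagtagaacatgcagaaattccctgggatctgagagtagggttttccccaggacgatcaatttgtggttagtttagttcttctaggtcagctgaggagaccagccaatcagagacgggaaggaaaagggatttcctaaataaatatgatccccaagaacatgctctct
Cxcl14: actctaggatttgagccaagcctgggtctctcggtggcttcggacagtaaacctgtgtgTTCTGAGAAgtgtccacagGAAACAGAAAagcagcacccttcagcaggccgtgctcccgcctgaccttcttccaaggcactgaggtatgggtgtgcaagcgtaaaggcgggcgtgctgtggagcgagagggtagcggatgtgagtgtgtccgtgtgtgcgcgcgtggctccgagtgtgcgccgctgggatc

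The *Cxcl1* and *Cxcl2* windows each held 1 run of capitals, the same letters in both, which match the kB consensus on both strands with overlap. With the base before the start counted as -1, the run lay at -71 to -61 in *Cxcl1* and at -97 to -87 in *Cxcl2*. The *Cxcl10* window held 2 kB matches, beginning at -159 and -103, with 1 GAAA repeat of the interferon-stimulated kind at -213 and 1 TGANTCA match at -74. In the *Cxcl9* window only TATAAA was found, as in that of *Cxcl13*, and the *Cxcl12* window held none of the 5 motifs. The *Cxcl14* window, inside the gene span, held the GAAA repeat and TTCNNNGAA. Of all 32851 RefSeq windows of this length, 3.90% held a kB match, 2.98% the GAAA repeat, 7.02% TTCNNNGAA, 6.75% TGANTCA and 12.4% TATAAA. These matches are of letters, and binding was not measured.

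After removal of cells under 500 genes or over 10% mitochondrial counts, 21534 pubertal and 22972 adult cells remained. Fibroblasts were taken as cells with a unique molecular identifier (UMI, 1 captured transcript) of *Pdgfra*, and these Pdgfra+ cells numbered 18878 and 20999, with median depths of 12187 and 11265 UMIs. The 6 fibroblast markers *Dcn*, *Lum*, *Pdgfra*, *Col1a2*, *Col1a1* and *Igfbp5* summed to 32284 and 27168 CPM (UMIs of a gene summed over the cells, per 1000000 UMIs of those cells) in them, against 4867 and 2526 CPM in mural cells, taken as cells without *Pdgfra* but with *Myh11* or *Rgs5*, genes of pericytes and smooth muscle (783 and 457 cells, median 6334 and 6126 UMIs). Leukocytes also make these chemokines, and 11 leukocyte markers summed to 2.48 CPM in pubertal and 2.44 CPM in adult Pdgfra+ cells. Among them, *Ptprc* was at 1 and 4 UMIs and *Cd3e* at 0 in both. A UMI of any of the 11 was in 552 pubertal and 555 adult Pdgfra+ cells, nearly all of them through the other markers. There were 145 barcodes present in both libraries, 0.669% and 0.625% of them. Intervals in the text are 95% intervals and cover counting error only. Since each transcript gives 1 tag at its 3′ end, CPM was compared between genes without division by length.

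Together the 10 chemokines took 3521 CPM in pubertal and 1997 CPM in adult Pdgfra+ cells. *Cxcl1* alone made up 47.8% and 39.3% of this, and was the 57th and 201st most abundant of all listed genes. Of the 10 genes, 5 were at least 2-fold lower in the adult, *Ccl2*, *Ccl7*, *Cxcl1*, *Cxcl2* and *Cxcl10*, where 1.86% of the 8645 genes with at least 10 CPM in either library were, and 1, *Cxcl14*, was at least 2-fold higher, where 4.4% of genes were. Their median adult over pubertal log2 ratio was -0.91, beside 0.13 over all genes tested. Scaling by trimmed means (TMM) moves every log2 ratio by -0.14, and it left the 5 lower and 1 higher genes the same. The genes with a ratio above 1 were *Ccl11*, *Cxcl12*, *Cxcl13* and *Cxcl14*.

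**Figure D1:**
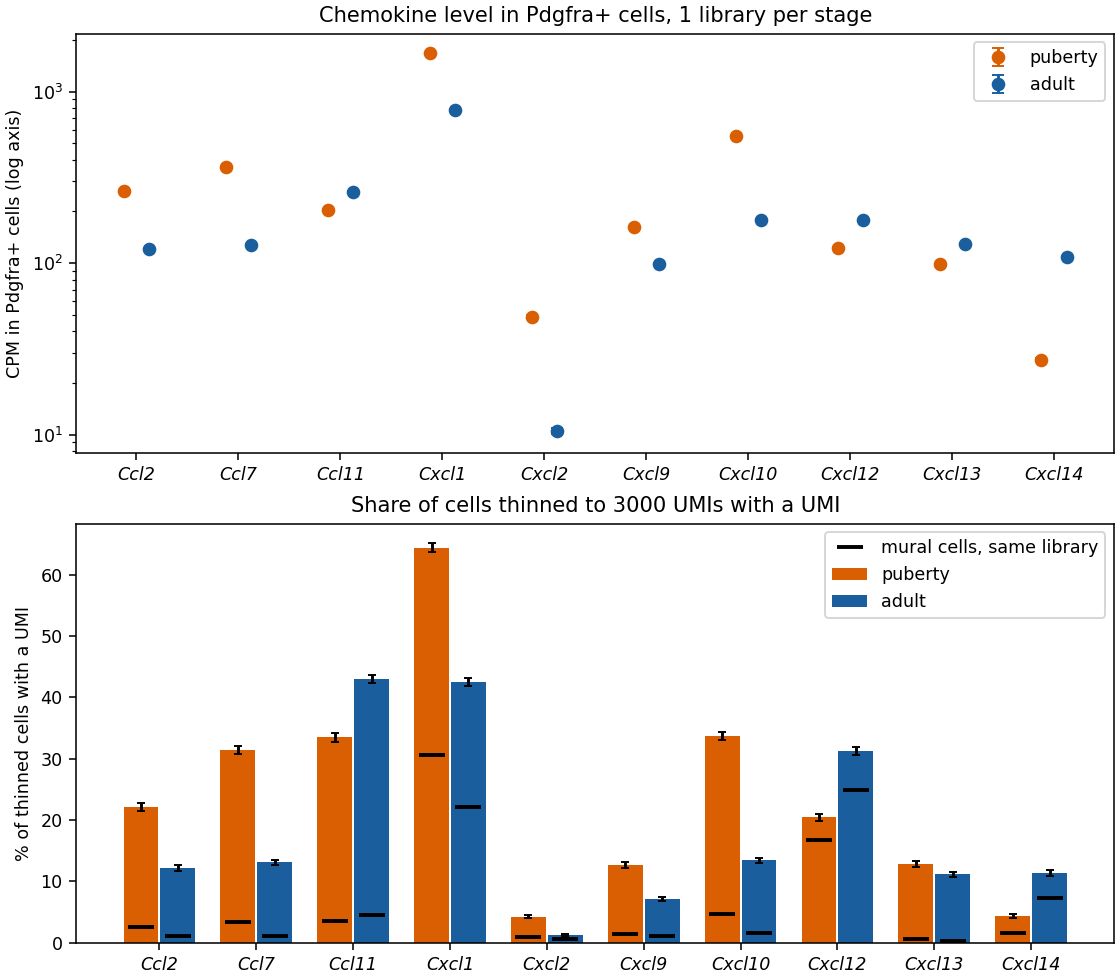
Level of each chemokine in Pdgfra+ cells of the pubertal and adult library (upper panel, CPM on a log axis, bars are exact Poisson intervals, mostly smaller than the points), and percent of Pdgfra+ cells thinned to 3000 UMIs that held a UMI of it (lower panel, bars are Clopper-Pearson intervals, black dashes the share in mural cells). Ccl2, Ccl7, Cxcl1, Cxcl2, Cxcl9 and Cxcl10 sit higher at puberty in both panels, and Cxcl14 sits at 27.3 CPM at puberty and 108 CPM in the adult.

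*Cxcl1*, a ligand of Cxcr2 that draws neutrophils, was counted at 1683 CPM (interval 1677 to 1688) at puberty and 786 CPM (782 to 789) in the adult, a ratio of 0.467 (0.464 to 0.469). To compare the share of cells with a UMI across depths, each cell was thinned at random to 3000 UMIs, which left out 336 pubertal and 426 adult Pdgfra+ cells as too shallow. After thinning, 64.4% of pubertal and 42.5% of adult Pdgfra+ cells held a *Cxcl1* UMI, and 76.0% and 54.9% before it. Mural cells held one in 30.5% and 22.2% of thinned cells, the highest mural share among the 10 genes at puberty. The *Cxcl1* level was spread over many cells, with 7.44% and 12.2% of its UMIs in the top 1% of cells, and the cells that had it held 27.8 UMIs on average at puberty and 16.9 in the adult.

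*Cxcl2*, another Cxcr2 ligand, stood at 48.7 CPM (47.8 to 49.6) and 10.5 CPM (10.1 to 10.95), a ratio of 0.216 (0.207 to 0.226), the lowest of the 10. It ranked 12th from the lowest ratio among all genes tested. Few cells carried it, 4.24% of thinned pubertal and 1.24% of thinned adult cells beside 0.825% and 0.535% of mural cells. The top 1% of cells, 188 at puberty and 209 in the adult, held 54.5% and 86.7% of its UMIs, and the most in 1 cell was 135 UMIs at puberty and 42 in the adult. With the top 1% of cells left out of each library the ratio was 0.0635, a value that follows from those shares and adds nothing to them.

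*Ccl2* and *Ccl7*, neighbouring genes whose products draw monocytes through Ccr2, had similar levels. *Ccl2* was at 263 CPM (261 to 265) and 120 CPM (119 to 122), a ratio of 0.458 (0.452 to 0.464). *Ccl7* was at 364 CPM (362 to 367) and 127 CPM (126 to 129), a ratio of 0.349 (0.345 to 0.354). The intervals of both genes lay apart in each library, with *Ccl7* above *Ccl2*. Of thinned cells, 22.1% had a *Ccl2* UMI at puberty and 12.2% in the adult (mural 2.61% and 1.07%), and for *Ccl7* the shares were 31.4% and 13.1% (mural 3.30% and 1.07%).

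*Cxcl9* and *Cxcl10* are ligands of Cxcr3 on T and natural killer cells. *Cxcl10* was the second most abundant of the 10 at puberty, at 547 CPM (544 to 550), and stood at 179 CPM (177 to 180) in the adult, a ratio of 0.326 (0.323 to 0.330). The adult level overlapped in its interval that of *Cxcl12*. *Cxcl9* was at 163 CPM (162 to 165) and 99.2 CPM (98.0 to 100.5), a ratio of 0.608 (0.598 to 0.618), inside the 2-fold limit. The share of thinned cells with a UMI was 33.7% and 13.4% for *Cxcl10* (mural 4.68% and 1.60%), and 12.7% and 7.08% for *Cxcl9* (mural 1.38% and 1.07%). Cells with *Cxcl9* were few but rich in it, with 10.5 UMIs per such cell at puberty and 10.9 in the adult.

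*Ccl11* was at 204 CPM (202 to 206) and 261 CPM (259 to 263), a ratio of 1.28 (1.26 to 1.29). It was second to *Cxcl1* in the adult. Its share of thinned cells was 33.5% and 43.0%, beside 3.58% and 4.55% of mural cells, and it was the most evenly spread of the 10 in the adult library, with 8.81% of UMIs in the top 1% of cells.

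*Cxcl12*, the ligand of Cxcr4 that retains leukocytes and progenitor cells in stromal niches, was at 122 CPM (121 to 124) and 177 CPM (175 to 179), a ratio of 1.45 (1.43 to 1.47). A UMI was present in 20.5% and 31.2% of thinned cells. Mural cells had it nearly as often, in 16.8% and 24.9%, and at 98.4 and 153 CPM.

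*Cxcl13*, which draws B cells through Cxcr5, was at 98.7 CPM (97.4 to 99.9) and 130 CPM (128 to 131), a ratio of 1.31 (1.29 to 1.34), while its share of thinned cells was 12.8% at puberty and 11.1% in the adult. The level was thus higher and the share lower in the adult library, and the cells that had it held 5.17 UMIs on average at puberty and 8.34 in the adult. No direction is read for *Cxcl13* over all Pdgfra+ cells.

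*Cxcl14*, a homeostatic chemokine of epithelia and stroma, had the highest ratio, 3.95 (3.84 to 4.06), from 27.3 CPM (26.7 to 28.0) to 108 CPM (107 to 109). Of thinned cells, 4.31% had a UMI at puberty and 11.4% in the adult, beside 1.51% and 7.22% of mural cells. The top 1% of cells held 46.1% and 33.4% of its UMIs, and without those cells the ratio was 4.88, which follows from these shares.

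In the share of thinned cells, 3 of the 10 were at least 2-fold lower in the adult, *Ccl7*, *Cxcl2* and *Cxcl10*, where 1.62% of the genes tested were, and 1, *Cxcl14*, was at least 2-fold higher, where 3.77% were. *Ccl2* (0.551), *Cxcl1* (0.660) and *Cxcl9* (0.556) had share ratios between 0.5 and 1. Counted per cell, a thinned Pdgfra+ cell held UMIs of 2.40 of the 10 genes on average at puberty and of 1.86 in the adult. None of the 10 was seen in 11.9% and 18.2% of thinned cells, and 5 or more in 11.5% and 5.54%.

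The cells were next divided by marker genes that are not among the chemokines, all within Pdgfra+ cells: Pi16+Dpp4+ cells (13983 at puberty and 8853 in the adult, carrying markers of progenitor-like fibroblasts), cells with at least 2 UMIs of *Ccn5* (817 and 622), cells with *Gdf10* or *Fmo2* (7462 and 10066), cells with *Thbs4* or *Bmp5* (927 and 3117), cells with at least 2 UMIs of the lipid carrier gene *Fabp4* (1779 and 2553) and cells with *Crabp1* (289 and 2672). A cell could be in more than 1 subset. It was in exactly 1 for 63.9% of pubertal and 51.5% of adult Pdgfra+ cells, and in none for 3.66% and 11.8%.

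**Figure D2:**
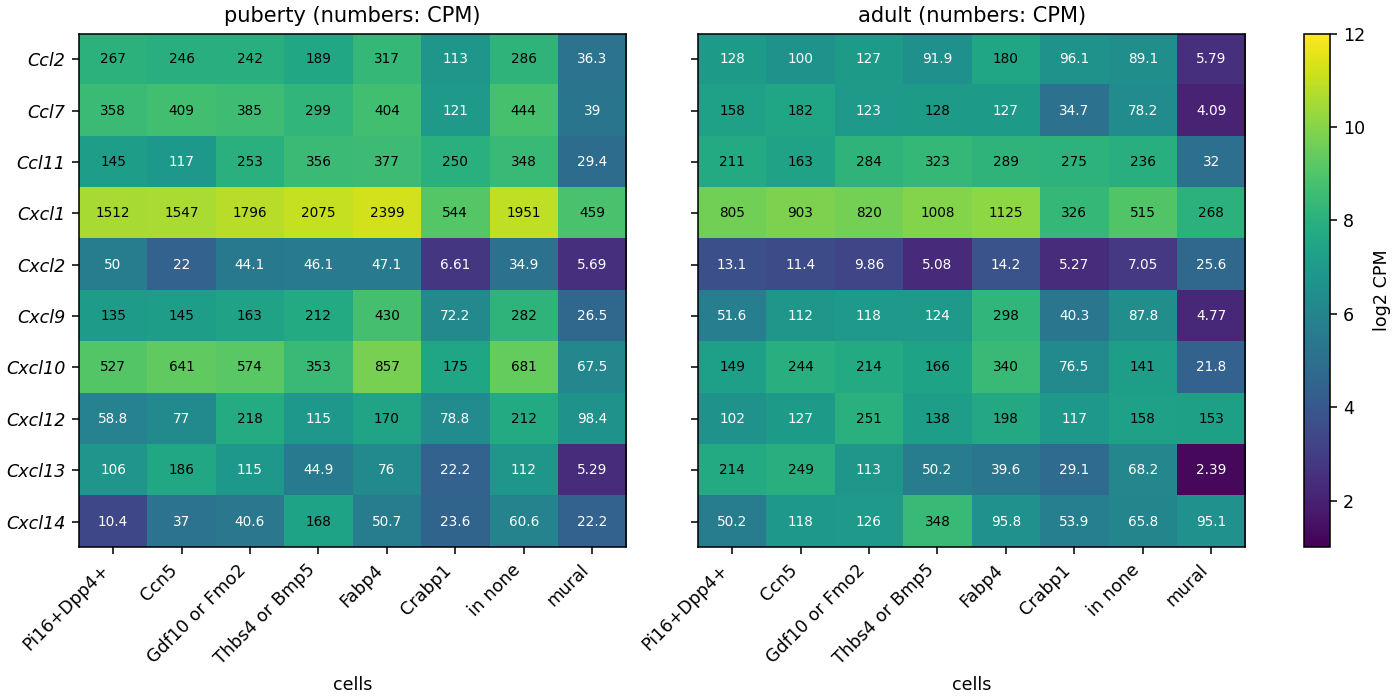
Level of each chemokine (rows) in the 6 subsets of Pdgfra+ cells, in Pdgfra+ cells of none of them and in mural cells (columns), for the pubertal (left) and adult (right) library. Colour is log2 CPM and the printed numbers are CPM. Cxcl1 is the brightest row in both panels, and the Fabp4 column holds its highest values, 2399 and 1125 CPM.

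The Fabp4 subset, which carries a marker of preadipocytes, had the highest level of 5 chemokines at puberty, *Ccl2*, *Ccl11*, *Cxcl1*, *Cxcl9* and *Cxcl10*. *Cxcl1* was at 2399 CPM at puberty and 1125 CPM in the adult there, ahead of the Thbs4 or Bmp5 subset at 2075 and 1008 CPM, and no neighbouring intervals overlapped in its order in either library. *Cxcl9* was the gene that set Fabp4 cells most apart, at 430 and 298 CPM, 3.29-fold (3.21 to 3.36) and 4.68-fold (4.56 to 4.79) the level of the other Pdgfra+ cells. *Cxcl10* there was at 857 and 340 CPM, 1.68-fold and 2.27-fold the level of the others. Thinned Fabp4 cells held UMIs of 3.14 and 2.36 chemokines on average, and 5 or more in 23.0% and 10.9%, the largest shares of the 6 subsets in each library. This subset also held mural markers. *Myh11*, *Rgs5*, *Acta2*, *Mcam*, *Notch3* and *Tagln* summed to 679 and 251 CPM in it, beside 90.0 and 50.8 CPM in all Pdgfra+ cells. In Thbs4 or Bmp5 cells the sum was 461 and 107 CPM.

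The Thbs4 or Bmp5 subset was where *Cxcl14* was highest, at 168 CPM at puberty and 348 CPM in the adult. This was 8.41-fold (7.97 to 8.86) and 5.50-fold (5.37 to 5.64) the other Pdgfra+ cells, with the next subset at 50.7 CPM (Fabp4) at puberty and 126 CPM (Gdf10 or Fmo2) in the adult. *Ccl11* was also high in this subset, at 356 and 323 CPM, second to Fabp4 cells at puberty and first in the adult. The lowest adult *Cxcl2* level of the 6 subsets was found there, 5.08 CPM, with an interval that overlapped that of Crabp1 cells at 5.27 CPM.

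*Cxcl12* was highest in the Gdf10 or Fmo2 subset, at 218 and 251 CPM, 4.07-fold (3.96 to 4.18) and 2.50-fold (2.45 to 2.55) the other Pdgfra+ cells. It was lowest in Pi16+Dpp4+ cells, at 58.8 and 102 CPM, below mural cells, and its thinned share of 12.6% and 21.7% there was also below the mural share of 16.8% and 24.9%. No order is read from these shares. *Cxcl14* was lowest in Pi16+Dpp4+ cells too, at 10.4 and 50.2 CPM, and overlapped Crabp1 cells (53.9 CPM) in the adult order. Its adult thinned share there was 5.90%.

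*Cxcl13* had an order of its own. The Ccn5 subset came first at 186 and 249 CPM, 1.98-fold and 2.00-fold the other Pdgfra+ cells. Pi16+Dpp4+ cells came after Gdf10 or Fmo2 cells at puberty (106 and 115 CPM) and before them in the adult (214 and 113 CPM), and relative to the other Pdgfra+ cells their level was 1.41-fold (1.36 to 1.46) and 4.37-fold (4.25 to 4.49). Mural cells were at 5.29 and 2.39 CPM.

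The Ccn5 subset was also first for *Ccl7*, at 409 and 182 CPM, although its interval overlapped that of Fabp4 cells (404 CPM) at puberty. Crabp1 cells were the poorest of the 6 subsets in several chemokines. They had the lowest level of the 6 subsets for *Ccl7* (121 and 34.7 CPM), *Cxcl1* (544 and 326 CPM), *Cxcl9* (72.2 and 40.3 CPM), *Cxcl10* (175 and 76.5 CPM) and *Cxcl13* (22.2 and 29.1 CPM) in both libraries, and none of the 10 was seen in 32.3% and 27.9% of thinned Crabp1 cells. *Ccl11* was an exception, at 250 and 275 CPM, at about the level of Gdf10 or Fmo2 cells at puberty (253 CPM). The adult share of thinned Crabp1 cells with *Cxcl1* was 20.9%, and that of mural cells 22.2%.

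Across the subsets the adult over pubertal ratio of *Ccl7* lay between 0.288 (Crabp1) and 0.445 (Ccn5), and that of *Cxcl10* between 0.283 (Pi16+Dpp4+) and 0.470 (Thbs4 or Bmp5). Both were at least 2-fold lower in all 6 in the values reported, but not under every alternative setting. With cells in exactly 1 subset, *Ccl7* was at 0.847 in Ccn5 cells and 0.580 in Thbs4 or Bmp5 cells. With 1 UMI more for each marker, *Cxcl10* was at 0.775 in Thbs4 or Bmp5 cells and 0.764 in Crabp1 cells. In Pi16+Dpp4+ cells 5 of the 10 were at least 2-fold lower and 2 higher, where 1.32% and 2.98% of genes were. The corresponding counts were 3 lower and 1 higher in Ccn5 cells (2.57% and 4.29% of genes), 4 and 1 in Gdf10 or Fmo2 cells (2.29% and 3.66%), 5 and 1 in Thbs4 or Bmp5 cells (2.26% and 1.38%), 4 and 0 in Fabp4 cells (2.11% and 2.04%), and 2 and 1 of 9 with enough counts in Crabp1 cells (2.67% and 2.1%). *Cxcl14* was the higher gene wherever there was one, joined in Pi16+Dpp4+ cells by *Cxcl13* at 2.02, which TMM scaling brought to 1.82. Over 6 alternative settings the lower count ranged from 1 to 4 in Ccn5 cells, 3 to 5 in Thbs4 or Bmp5 cells, 4 to 6 in Fabp4 cells and 1 to 2 in Crabp1 cells, and the higher count from 0 to 1 in Thbs4 or Bmp5 cells, 1 to 2 in Pi16+Dpp4+ and Ccn5 cells and 0 to 3 in Crabp1 cells. The *Cxcl14* call in Thbs4 or Bmp5 cells was lost with doublets removed, with thinned cells, with 1 UMI more for each marker and with cells in exactly 1 subset. In Crabp1 cells the *Cxcl14* call was lost with doublets removed (1.82) and with thinned cells (1.36), where *Cxcl12* was the higher gene (2.20).

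**Figure D3:**
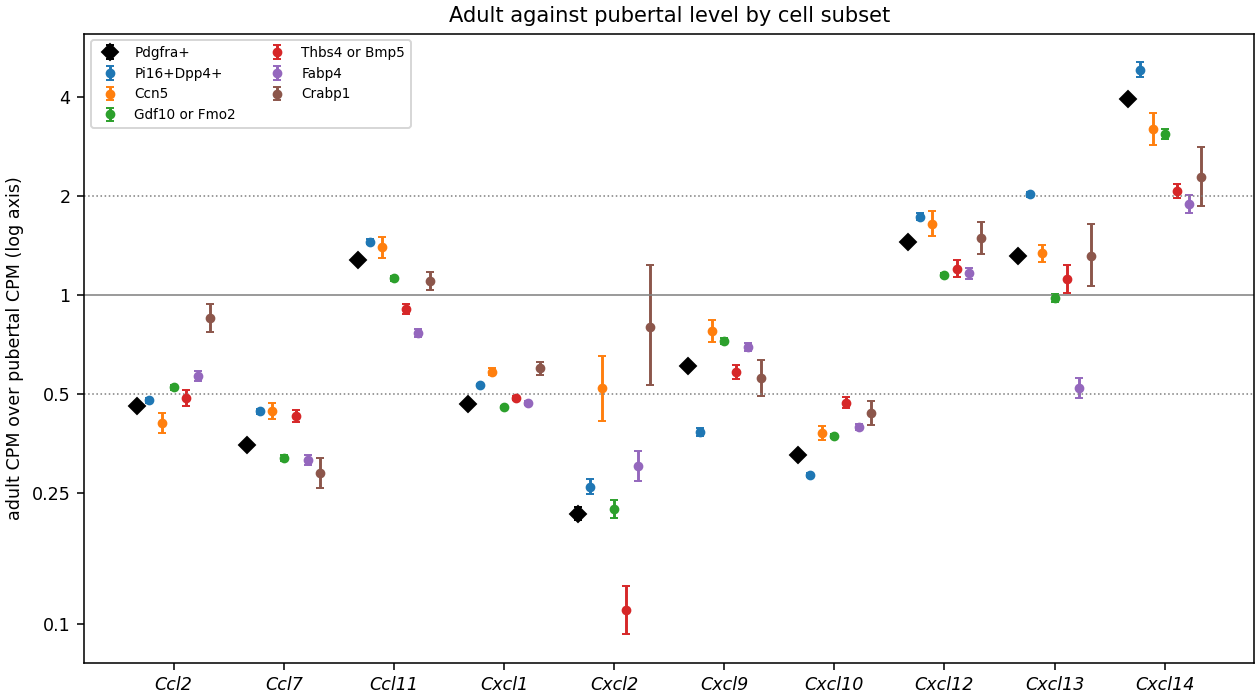
Adult over pubertal CPM ratio of each chemokine in all Pdgfra+ cells (black diamonds) and in each subset (coloured circles), on a log axis with conditional binomial intervals; dotted lines mark 0.5 and 2. Ccl7 and Cxcl10 lie below 0.5 in every subset, and the points of Ccl11 and Cxcl13 lie on both sides of 1.

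*Cxcl2* varied most between subsets, from 0.110 (0.0931 to 0.130) in Thbs4 or Bmp5 cells to 0.798 (0.533 to 1.24) in Crabp1 cells, where it was under 10 CPM in both libraries. *Cxcl9* was at 0.383 in Pi16+Dpp4+ cells and 0.775 in Ccn5 cells. *Ccl11* had a ratio of 1.45 (1.43 to 1.48) in Pi16+Dpp4+ cells and 0.766 (0.745 to 0.787) in Fabp4 cells. *Cxcl13* had 2.02 (1.99 to 2.06) in Pi16+Dpp4+ cells and 0.522 (0.487 to 0.558) in Fabp4 cells. The differences between subsets were not tested. In Pdgfra+ cells of no subset, *Ccl7* was at 444 and 78.2 CPM and *Cxcl10* at 681 and 141 CPM.

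The subsets made up different shares of the Pdgfra+ cells at each stage. When adult cells were weighted to the pubertal make-up (cells in 1 given subset alone, in several or in none), the ratio was 0.478 for *Ccl2*, 0.401 for *Ccl7*, 0.484 for *Cxcl1*, 0.256 for *Cxcl2*, 0.309 for *Cxcl10* and 2.71 for *Cxcl14*, all still past 2-fold. *Cxcl12* moved from 1.45 to 1.16, *Cxcl9* from 0.608 to 0.508 and *Cxcl13* from 1.31 to 1.75.

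In mural cells 0 of the 10 chemokines had a higher CPM than in Pdgfra+ cells at puberty, where 54.7% of the 9127 genes with 10 CPM did, and 1, *Cxcl2*, did in the adult, where 57.4% of 9715 genes did. Of the 75 *Cxcl2* UMIs of adult mural cells (25.6 CPM), 72 were in 1 cell, and 3 cells had any. *Ccl2* was at 36.3 and 5.79 CPM, *Ccl7* at 39.0 and 4.09 CPM, and *Cxcl10* at 67.5 and 21.8 CPM in mural cells, each at most 0.138-fold its level in Pdgfra+ cells. *Cxcl14* was at 22.2 and 95.1 CPM, 0.811-fold and 0.880-fold. Its 279 adult mural UMIs were in 33 of 457 cells. The epithelial markers *Epcam*, *Krt8*, *Krt18*, *Krt14* and *Krt5* summed to 34.9 and 610.0 CPM in the mural cells, beside 3.16 and 1.12 CPM in Pdgfra+ cells. The 9 pubertal and 30 adult mural cells with a UMI of any of them held 84 of the 113 and 271 of the 279 *Cxcl14* UMIs, and 74 of the 75 adult *Cxcl2* UMIs. In the mural cells without them, *Cxcl14* was at 5.76 and 3.12 CPM, 0.211-fold and 0.0289-fold its level in Pdgfra+ cells. The mural share of *Cxcl14* given above was counted with those cells included.

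Pairs of chemokines were then compared across single Pdgfra+ cells. Pearson r of log(1 + UMIs per 10000) is given as a description over 18878 pubertal and 20999 adult cells, which share a library, and is lowered by sparse counts. *Ccl2* and *Ccl7* had r = 0.46 and 0.35, *Cxcl9* and *Cxcl10* 0.46 and 0.45, *Ccl2* and *Cxcl1* 0.36 and 0.32, and *Ccl7* and *Cxcl1* 0.35 and 0.31. Between the NF-kB and interferon classes, *Cxcl1* and *Cxcl10* had 0.29 and 0.30, *Ccl7* and *Cxcl10* 0.31 and 0.23, and *Ccl2* and *Cxcl10* 0.29 and 0.25. *Cxcl1* and *Cxcl2* had 0.23 and 0.16. The strongest pair with *Ccl11* was *Cxcl12* at puberty (0.28). All pairs of *Cxcl13* had r of at most 0.13 in both libraries.

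**Figure D4:**
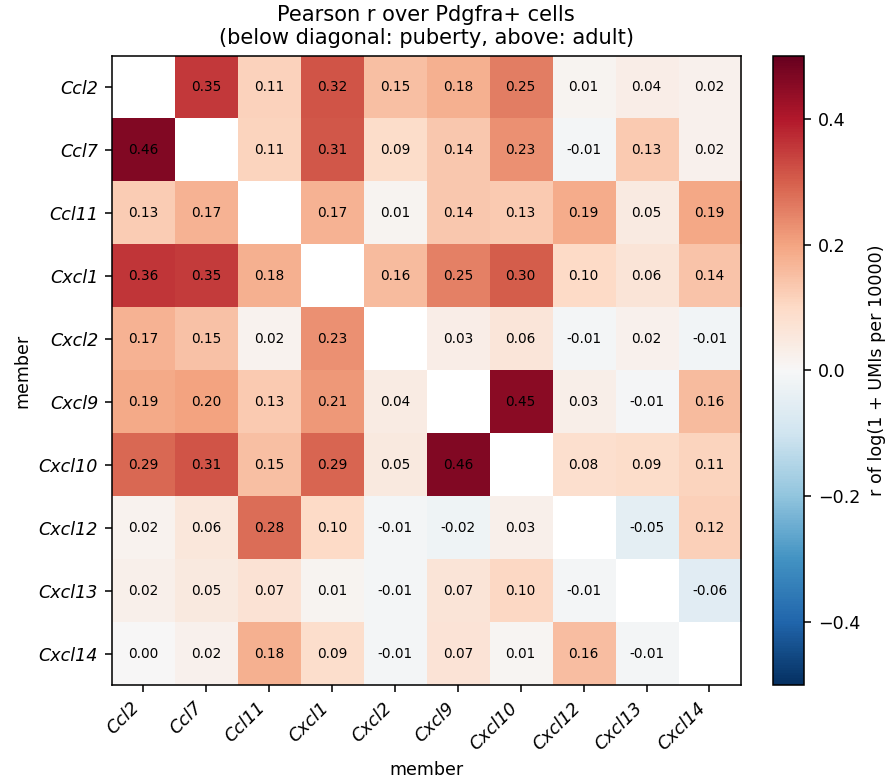
Pearson r between chemokines over single Pdgfra+ cells, below the diagonal for the pubertal and above it for the adult library (colour and printed numbers, no unit). The Ccl2, Ccl7 and Cxcl1 block and the Cxcl9 and Cxcl10 pair hold the highest values of each library, up to 0.46.

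Among 12806 genes detected in at least 1% of Pdgfra+ cells of both libraries, the genes most like each chemokine were ranked by the lower of the 2 r values. For *Cxcl1* they were *Nfkb1*, the NF-kB subunit p105/p50 (r = 0.45 and 0.37), *Kdm6b*, a histone demethylase (0.40 and 0.34), and *Ptx3*, a soluble pattern-recognition protein (0.34 and 0.33). *Nfkb1* also came second for *Ccl2* (0.39 and 0.33), and *Ptx3* came after *Ccl2* and *Cxcl1* for *Ccl7* (0.29 and 0.33). For *Cxcl10* they were *Cxcl9*, then *Ifit1*, an interferon-induced antiviral gene (0.47 and 0.43), and *Irf1*, an interferon-regulated transcription factor (0.42 and 0.37), and for *Cxcl9*, after *Cxcl10*, *Rnf213* (0.37 and 0.34) and the interferon-induced GTPase *Iigp1* (0.35 and 0.33).

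The others had different partners. *Cxcl12* went with *Gdf10* (0.46 and 0.42), *Apoe* (0.54 and 0.41) and *Igfbp7* (0.51 and 0.39). *Ccl11* went with *Cp*, which encodes ceruloplasmin (0.31 and 0.24), *Vtn*, vitronectin (0.29 and 0.23), and *Steap4*, a metalloreductase (0.30 and 0.22). *Cxcl13* went with *Gpx3* (0.30 and 0.31) and the complement genes *C4b* (0.26 and 0.34) and *C3* (0.24 and 0.42). *Cxcl14* went with *Grm8* (0.34 and 0.35), *Hmcn2* (0.32 and 0.34) and *Col4a1*, a basement membrane collagen (0.30 and 0.31). No gene reached 0.2 in both libraries with *Cxcl2*.

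Other chemokine ligands were scarce. Of 29 listed, 4 had 10 CPM in Pdgfra+ cells of either library, and 1 of them was at least 2-fold higher in the adult, beside 4.4% of all genes. It was *Ccl19*, a ligand of Ccr7, at 13.6 and 28.9 CPM, a ratio of 2.12 (2.03 to 2.21), or 1.92 with TMM scaling. *Ccl8* was at 47.9 and 43.2 CPM, *Cxcl16* at 12.1 and 13.9 CPM and *Ccl25* at 12.8 and 10.8 CPM. Of 23 receptors, 3 had 10 CPM, all of the atypical kind that bind chemokines without classical signalling. *Ackr3*, which takes up the product of *Cxcl12*, was at 600 and 389 CPM, a ratio of 0.649 (0.644 to 0.655), with 65.8% and 38.7% of thinned cells. *Ackr1*, which binds many inflammatory chemokines, was at 30.9 and 14.0 CPM (0.452) and *Ackr2*, a scavenger of CC chemokines, at 16.6 and 9.61 CPM (0.579).

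Of 15 other NF-kB and inflammatory targets 14 had 10 CPM. Of these, 5 had a ratio below 1, and that share was not counted over all genes either. The count depended on the scaling, since TMM brought further genes of the list below 1. Of the 14, 1 was at least 2-fold lower in the adult and 1 was higher, beside the 1.86% and 4.4% of all genes given above. The lower gene was *Ptgs2*, the inducible prostaglandin synthase, at 278 and 127 CPM (0.458). The higher was the adhesion gene *Icam1*, at 76.1 and 154 CPM (2.02, or 1.83 with TMM scaling). The list's median log2 ratio was 0.12, close to the 0.13 over all genes tested. *Il6* was at 187 and 94.2 CPM (0.503, or 0.456 with TMM scaling), *Nfkb1* at 987 and 703 CPM (0.712), *Birc3* at 275 and 545 CPM (1.98) and *Tnfaip3* at 49.2 and 82.7 CPM (1.68). Of 19 interferon-induced genes 18 had 10 CPM. Of these, 1 was at least 2-fold lower, *Rsad2* at 52.6 and 25.9 CPM (0.493), and none was higher, beside the same 1.86% and 4.4% of all genes. Of the 18, 15 had a ratio below 1, a share that was not counted over all genes. The median log2 ratio was -0.34, beside 0.13 over all genes tested. *Ifit1* was at 227 and 115 CPM (0.505, or 0.458 with TMM scaling) and *Usp18* at 58.7 and 35.5 CPM (0.604). In CPM, *Ifit2* (1.20) and *Stat2* (1.05, or 0.952 with TMM scaling) were above 1. Summed, the interferon list came to 1844 and 1412 CPM in Pdgfra+ cells, and it was highest in Fabp4 cells at puberty (2899 CPM, and 1800 CPM in the adult) and in Ccn5 cells in the adult (2053 CPM, and 1792 CPM at puberty).

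Immediate-early and heat shock genes are induced within minutes of many stimuli, tissue digestion among them. Of 18 such genes 4 were at least 2-fold higher in the adult and none lower, beside 4.4% and 1.86% of all genes, and the median log2 ratio was 0.37. These were the heat shock genes *Hspa1b* (36.8 and 295 CPM, ratio 8.03) and *Hspa1a* (46.9 and 248 CPM, 5.29) and the transcription factor genes *Egr2* (48.6 and 124 CPM, 2.55) and *Ier2* (410 and 836 CPM, 2.04, or 1.85 with TMM scaling). The lowest ratios were those of *Klf2* (0.710), *Atf3* (0.735) and *Nr4a1* (0.771). The list summed to 25944 and 32165 CPM in Pdgfra+ cells. Because this list moves with the stage, the chemokines were also compared in tertiles of the Pdgfra+ cells of both libraries by its share of a cell's UMIs. The lowest tertile held 7868 pubertal and 5425 adult cells, the middle 6771 and 6521, and the highest 4239 and 9053.

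Within the lowest tertile, *Cxcl1* was at 1874 and 573 CPM (ratio 0.305), *Ccl2* at 389 and 135 CPM (0.348), *Cxcl2* at 87.7 and 16.1 CPM (0.183), *Cxcl9* at 156 and 47.8 CPM (0.307) and *Cxcl10* at 506 and 102 CPM (0.202). Within the highest they were closer, *Cxcl1* at 1445 and 907 CPM (0.628), *Ccl2* at 114 and 89.1 CPM (0.783), *Cxcl2* at 9.44 and 6.03 CPM (0.639), *Cxcl9* at 168 and 135 CPM (0.805) and *Cxcl10* at 471 and 199.9 CPM (0.425). *Ccl7* and *Cxcl10* were past 2-fold in every tertile. *Cxcl14* was higher in the adult in each, with ratios of 4.60, 2.67 and 3.16 from the lowest to the highest. Its level was higher in cells with a larger share of the list in both libraries, as were those of *Ccl11* and *Cxcl12*. In the adult library the levels of *Cxcl1* and *Cxcl9* also rose from the lowest to the highest tertile. *Cxcl13* had a ratio of 1.85 in the lowest tertile and 0.748 in the highest. In cells without a UMI of *Hspa1a* or *Hspa1b* (11244 and 5789), *Cxcl1* had a ratio of 0.514, *Cxcl10* of 0.372 and *Cxcl14* of 3.14. Whether handling of the tissue had a part in the stage difference was not tested.

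**Figure D5:**
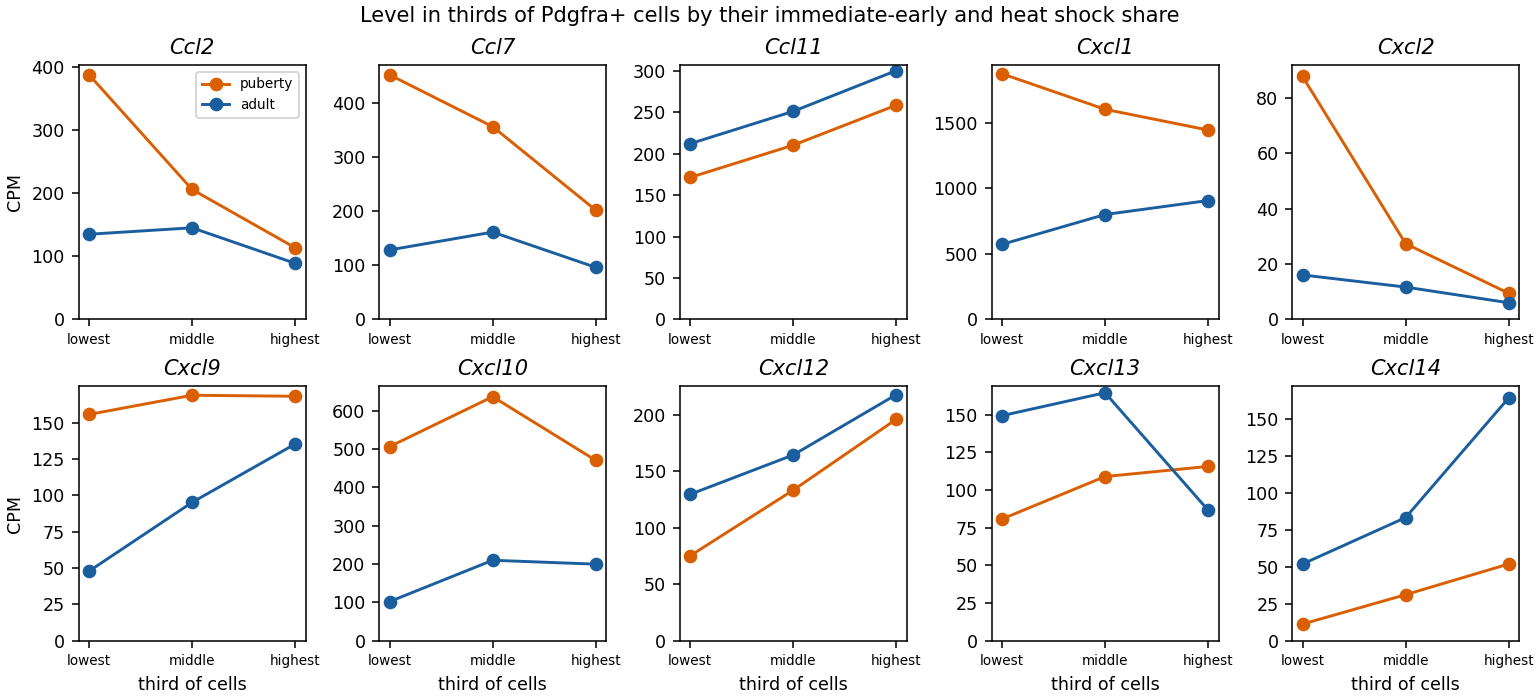
Level of each chemokine (CPM, axes from 0) in the lowest, middle and highest tertile of Pdgfra+ cells by the share of their UMIs from immediate-early and heat shock genes, for the pubertal (orange) and adult (blue) library, 1 value per library and tertile. Ccl2, Ccl7 and Cxcl2 are lower toward the highest tertile at puberty and the libraries come closer there. Ccl11, Cxcl12 and Cxcl14 climb along both lines, and Cxcl1 and Cxcl9 climb along the adult line.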

How the data were processed

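The deposited values are whole-number UMI counts of each gene in each called barcode, 1 filtered matrix per library and not normalized, made by the authors with Cell Ranger 8.0.1 and build mm10 per the submitters' processing notes. Per the labels the kit was GEM-X 3′ v4. Kit, Cell Ranger release and pubertal age are given differently in the study's methods, and the labels were followed here. The labels also speak of glands from the same mouse, which was not resolved. Total counts were 255274670 UMIs over 21688 barcodes at puberty and 259549498 over 23183 in the adult.

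Cells with at least 500 genes and at most 10% mitochondrial UMIs were kept, and no doublets were removed in the values reported. Counts were summed over cells and divided to CPM. CPM has an exact Poisson interval, shares an exact Clopper-Pearson interval and ratios a conditional binomial interval, at 95%. Since each stage had a single library, no test was run, and genes are described as past 2-fold where they had at least 10 CPM in either library. Cells were thinned without replacement to 3000 UMIs. Motifs were searched on both strands of RefSeq windows. Calling rules and thinning were checked on simulated data.

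The genes, cell rules and lists were chosen with earlier results of these data known. Named beyond the 10 chemokines are other ligands and receptors with 10 CPM, the 3 highest and 3 lowest ratios of each list, and for each chemokine the 3 genes of highest r of at least 0.2. A gene that this rule names is not reported here. *Ier2* and the marker genes were named after their values were seen. Alternatives comprised doublet removal by Scrublet rank (scanpy 1.11.5; 1881 and 2150 barcodes), stricter filters, TMM (edgeR 4.0.16, R 4.3.3), thinning, other marker thresholds, weighting to the pubertal make-up and left-out groups of cells. Python 3.11.15 was used with scipy and pandas.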

Additional observations from a re-analysis of the deposited data

Results flagged for a closer look

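Both results named here stand out because the ratio of adult over pubertal level pointed opposite ways in 2 subsets of Pdgfra+ cells, with each interval on its own side of 1. *Ccl11* had a ratio of 0.766 in Fabp4 cells and 1.45 in Pi16+Dpp4+ cells. *Cxcl13* had a ratio of 0.522 in Fabp4 cells and 2.02 in Pi16+Dpp4+ cells. With 1 library per stage, the difference between subsets was not tested. The subsets share cells, since a cell with *Pi16*, *Dpp4* and *Fabp4* UMIs was counted in both.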

How the results depend on the processing

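The 10 ratios in Pdgfra+ cells were recomputed under 18 alternatives each, and of the 180 values 1 changed direction: *Cxcl13*, at 0.748 in the tertile of cells with the highest immediate-early share. Of the others, 108 lay outside the counting interval of the ratio reported and kept its direction. That tertile also had 2 chemokines at least 2-fold lower in the adult in place of 5. The comparisons by tertile and without *Hspa1a*, *Hspa1b*, interferon-induced or mural UMIs were added after the data were seen. In mural cells of the adult library, 0 chemokines were above Pdgfra+ cells after thinning to 3000 UMIs, 0 when mural cells needed 2 UMIs of *Myh11* or *Rgs5*, and 0 in mural cells without UMIs of 5 epithelial markers, a setting added after the data were seen. With TMM scaling, 5 list genes were at least 2-fold lower and 3 higher, in place of 3 and 6. The other 64 of 70 counts stayed within 1.5 times the value reported, where the subset counts were summed over the 6 subsets. Within single subsets the counts moved more: Ccn5 cells had 1 lower in place of 3 and Thbs4 or Bmp5 cells 3 in place of 5 with 1 UMI more for each marker, and Crabp1 cells had 0 higher with doublets removed and 3 with cells in exactly 1 subset, in place of 1. No paired analysis was possible because each stage has 1 library and the groups share 1 replicate number. Low counts limit *Cxcl2* and all values of the 289 pubertal Crabp1 cells, and no interval covers the spread between animals.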
